A study of Homo sapiens with 9 samples.

Results

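Of the 20030 genes measured in MHCC97L and its drug-resistant lines, 9 are described here, namely the SRC family kinases SRC, YES1, FYN, LYN, LCK, FRK, FGR and BLK, and CSK, the kinase that holds them in check. The 9 genes were taken by name, as members of a kinase family and its regulator. Earlier results of these data were known when they were chosen. MHCC97L is a human hepatocellular carcinoma (HCC) cell line. MHCC97L-Src was derived from it by exposure to rising concentrations of saracatinib, an inhibitor of SRC family kinases, until it was stably resistant to 4 μmol/L. MHCC97L-Oxa was stably resistant to 2 μmol/L oxaliplatin, a platinum drug that damages DNA. The suffix Src stands for the selecting drug and not for a change made to the SRC gene, and the labels name no engineered allele in any of the 3 lines. Each line was sequenced in 3 libraries, and the labels give their treatment as none, saracatinib or oxaliplatin. They do not say whether the drug was present when RNA was taken or whether a resistant line was grown from 1 clone.

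SRC family kinases are attached to the inner face of the plasma membrane by a lipid anchor and pass signals from integrins and growth factor receptors to the cytoskeleton. Each carries an SH3 domain, an SH2 domain and a kinase domain, and a tyrosine near the end of the chain that shuts the enzyme off when it is phosphorylated. CSK, together with its relative MATK, phosphorylates that tyrosine, and several tyrosine phosphatases remove the phosphate again. SRC, YES1 and FYN are made in most tissues, whereas LCK, FGR and BLK are known mainly from blood cells and FRK from epithelia. Saracatinib binds the kinase domain, so the mRNA levels given here say nothing of enzyme activity.

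The libraries held 16970486 to 18209213 reads counted on genes, and a floor of 3 counts, or 0.165 to 0.177 CPM (counts scaled to a common library total), was taken as the smallest amount that can be told from 0. Reads that PCR copied from the same molecule could not be told apart, so this floor covers counting error only. The libraries differed in how far genes rich in GC were read, which is given here as Spearman's rho, across 12126 genes, between a gene's GC content and its deviation from the mean of the 9 libraries. In replicates 1 to 3 of MHCC97L rho was -0.78, 0.30 and -0.26, for MHCC97L-Src it was 0.54, 0.70 and 0.19, and for MHCC97L-Oxa 0.31, 0.20 and 0.17. MHCC97L replicate 1 stood apart from the other libraries, so fold changes are also given with a correction for GC content and gene length. Of 10 hepatocyte or HCC markers, ALB, AFP, APOB and TTR were at 0 counts in all 9 libraries. These defining markers of the labelled hepatoma cells were thus absent, while the epithelial keratins KRT8 and KRT18 were abundant. SERPINA1 reached 9 to 22 reads per MHCC97L-Src library and 14 to 31 per MHCC97L-Oxa library, against 1 in each MHCC97L library. HNF4A had 2 to 13 reads with overlap between the lines, APOA1 had 0 to 4, and GPC3 had 1 read in MHCC97L replicate 1 only.

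FYN was the only member that passed the test in a comparison. FYN couples integrins, T-cell receptors and growth factor receptors to downstream kinases. It was highest in MHCC97L-Src, intermediate in MHCC97L-Oxa and lowest in MHCC97L. The 3 MHCC97L libraries held 259, 194 and 157 FYN reads. The 3 MHCC97L-Src libraries held 719, 550 and 882 reads, and the 3 MHCC97L-Oxa libraries 423, 390 and 365. No FYN values overlapped between lines, since every MHCC97L-Src library lay above every MHCC97L-Oxa library, and these lay above every MHCC97L library. The share of all genes that separate the lines in this way is not given here. This and later statements that lines did not overlap are therefore descriptions only. The mean level was 11.4 ± 3.002 CPM in MHCC97L, 41.4 ± 8.88 CPM in MHCC97L-Src and 21.8 ± 1.35 CPM in MHCC97L-Oxa (SD, n = 3 each). In bulk RNA, more FYN mRNA per cell and more cells that carry it cannot be told apart.

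**Figure D1:**
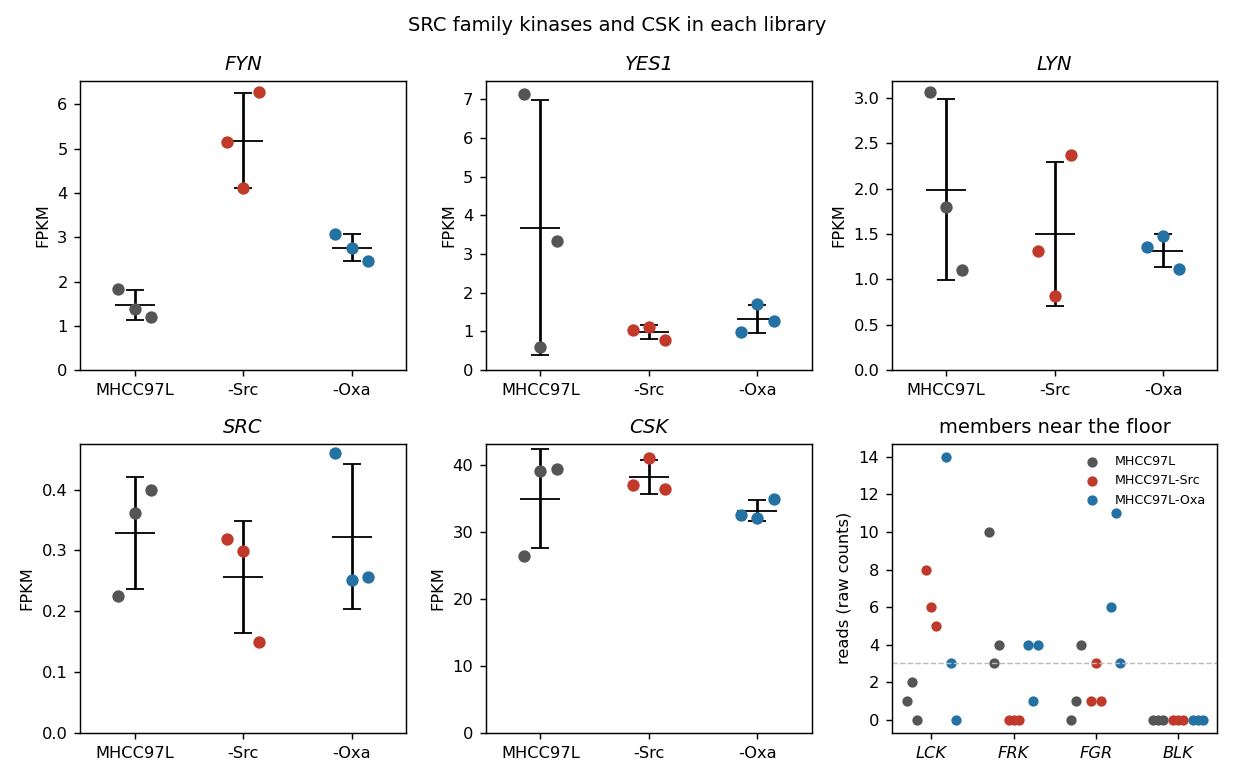
Levels of the members in each library. The first 5 panels give FPKM (fragments normalized to transcript length and depth) on linear axes that start at 0, with points for libraries and bars for the mean and SD of 3 libraries, and the last panel gives raw reads of the 4 members near the floor, with a dashed line at 3 reads. FYN separates the 3 lines without overlap, whereas YES1 in MHCC97L spans 0.588 to 7.13 FPKM.

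FYN rose in MHCC97L-Src against MHCC97L, 3.79-fold (log2 fold change 1.92, SE 0.33, 95% interval 1.18 to 2.67, edgeR adjusted p = 0.0245). It was the only one of the 5 members tested that did, in a comparison in which 1.43% of 12037 genes rose and 0.698% fell at an adjusted p under 0.05. Ordered by log2 fold change, FYN was gene 194 of the 12037, counted from the highest. Leaving out MHCC97L replicate 3 or any one of the MHCC97L-Src libraries ended the call, with adjusted p between 0.0943 and 0.151, while the log2 fold change stayed between 1.77 and 2.11. It was also lost with limma on log2(FPKM + 1) (adjusted p = 0.0552). With the GC and length correction the log2 fold change was 1.90 (adjusted p = 0.00190), and FYN was called with each of the 6 libraries left out. Of 4 endothelial markers, CDH5 was also higher in MHCC97L-Src, with 188, 196 and 236 reads against 17, 28 and 22 in MHCC97L and 7 to 12 in MHCC97L-Oxa. PECAM1 overlapped between the lines (15 to 39 reads), VWF had 0 to 4 reads and KDR none, so the summed FPKM of this list, 1.69 to 2.06 in MHCC97L-Src against 0.275 to 0.297 and 0.137 to 0.175, followed CDH5. Of 4 fibroblast markers, DCN and PDGFRB were lower in MHCC97L-Src (163 to 446 and 181 to 241 reads) than in MHCC97L (729 to 2256 and 458 to 690). COL1A1 overlapped between these lines (1022 to 1163 and 1083 to 1159 reads) and COL1A2 had 0 to 2 reads, and the summed FPKM was 10.6 to 12.7 in MHCC97L-Src, 17.7 to 28.7 in MHCC97L and 21.6 to 23.9 in MHCC97L-Oxa. Their part in the FYN difference was not tested.

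Against MHCC97L-Oxa, FYN was also higher in MHCC97L-Src, 1.95-fold (log2 fold change 0.96, SE 0.16, 95% interval 0.61 to 1.32, edgeR adjusted p = 0.00836). In that comparison 2.12% of 11994 genes rose and 2.52% fell, and FYN was gene 211 by log2 fold change. The call was lost without MHCC97L-Oxa replicate 2 or replicate 3 (adjusted p = 0.0728 and 0.0568), in a fit of all 9 libraries (adjusted p = 0.170), and with limma on log2(FPKM + 1) or log2(FPKM + 0.1) (adjusted p = 0.0639 and 0.0545). With the GC and length correction it held with each library left out.

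In MHCC97L-Oxa against MHCC97L, the FYN difference was 1.94-fold (log2 fold change 0.96, SE 0.32, 95% interval 0.23 to 1.69), and it did not pass the threshold (edgeR adjusted p = 0.190). No member was called, beside 0.771% of 12064 genes that rose and 0.182% that fell. By the unadjusted p alone 1 member, FYN, was under 0.05, and DESeq2 called FYN (adjusted p = 0.0137). Without MHCC97L replicate 1 the log2 fold change was 1.202 (edgeR adjusted p = 0.00908), and with the GC and length correction 0.96 (adjusted p = 0.0385). Unlike in the other comparisons, the call with the correction held in only 2 of 6 fits with 1 library left out. The log2 fold change in these 6 fits was 0.93 to 1.17. The 3 MHCC97L libraries served in both comparisons with a resistant line, which are thus not independent. The median log2 fold change of all genes tested was -0.16 in MHCC97L-Src, -0.19 in MHCC97L-Oxa and -0.02 between the resistant lines, and FYN lay above it in all 3 comparisons.

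**Figure D2:**
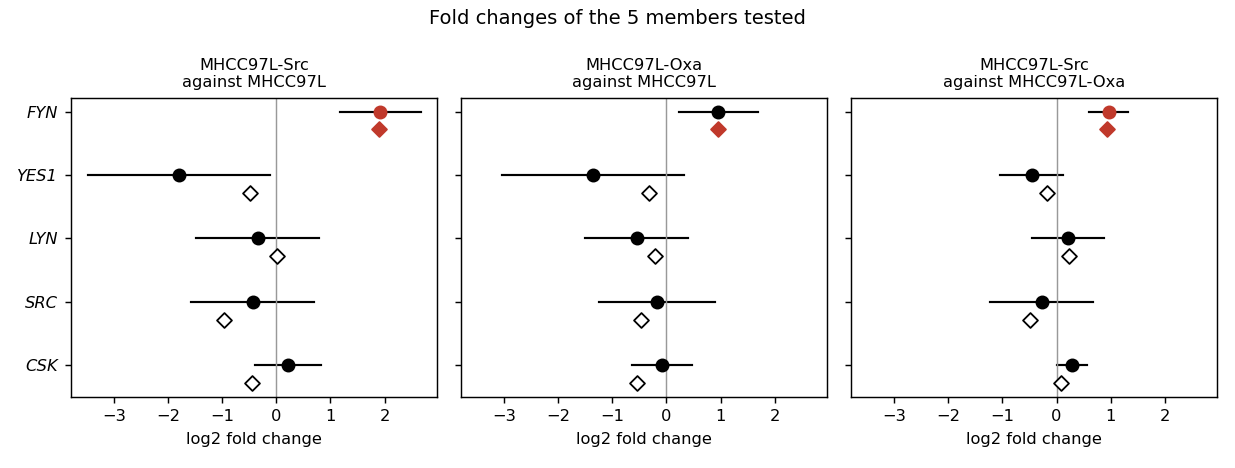
Log2 fold changes of the 5 members tested in the 3 comparisons. Circles with lines are the edgeR estimates with their 95% intervals, diamonds the estimates with the GC and length correction, and red marks an adjusted p under 0.05. FYN is red in 2 comparisons without the correction and in 3 with it, while YES1 moves from -1.80 to -0.48 and CSK from 0.21 to -0.46 with it in MHCC97L-Src against MHCC97L.

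YES1, a close relative of SRC that is made in most tissues, varied more between libraries of 1 line than the other 4 members tested. The MHCC97L libraries held 800, 64 and 333 YES1 reads. The MHCC97L-Src libraries held 106, 113 and 83 reads, and the MHCC97L-Oxa libraries 110, 181 and 160. MHCC97L replicates 1 and 3 were above, and replicate 2 below, every library of the resistant lines, so the lines overlapped. In MHCC97L-Src the log2 fold change was -1.80 (SE 0.74, 95% interval -3.49 to -0.12, edgeR adjusted p = 0.152), and it was -1.35 in MHCC97L-Oxa (adjusted p = 0.276). Between the resistant lines it was -0.46 (adjusted p = 0.3598).

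The YES1 difference from MHCC97L depended on which MHCC97L library was used. Without MHCC97L replicate 2, YES1 passed the test in MHCC97L-Src (log2 fold change -2.25, edgeR adjusted p = 0.00439) and in MHCC97L-Oxa (-1.77, adjusted p = 0.0208). Without MHCC97L replicate 1 it was at -0.83 in MHCC97L-Src and -0.33 in MHCC97L-Oxa. With the GC and length correction it was -0.48 in MHCC97L-Src (adjusted p = 0.473). The YES1 transcript has a GC content of 37.7%, below 38.7%, the 10th percentile of tested genes, and MHCC97L replicate 1, with the most YES1 reads, is the library with the lowest rho with GC content. GENCODE release 29 also lists a pseudogene, YES1P1, which has no row in the count table, so the assignment of reads shared with it is uncertain.

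**Figure D3:**
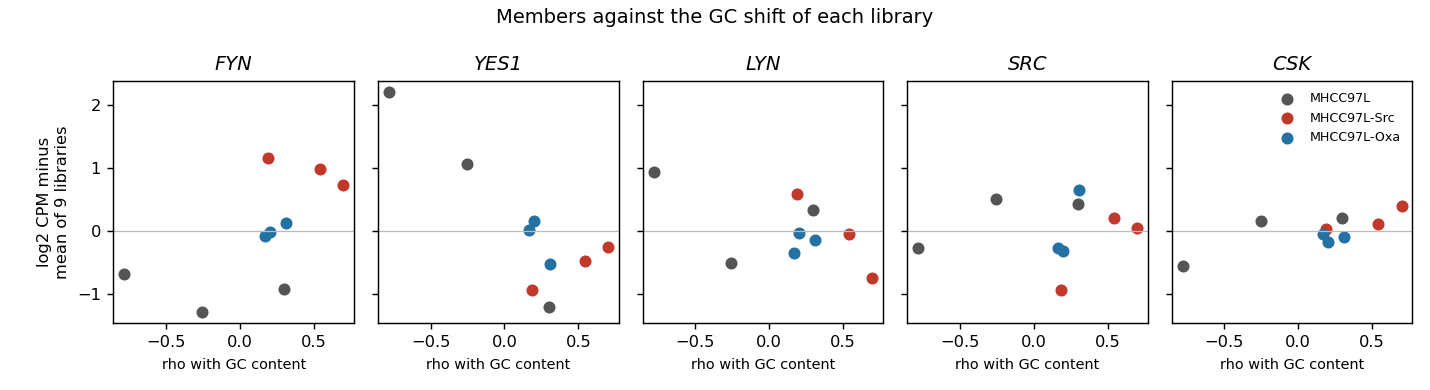
Deviation of each member's log2 CPM from its mean over 9 libraries (vertical axis) against the library's rho with GC content (horizontal axis), 1 point per library, coloured by line. YES1 is at 2.21 in the library with rho -0.78 and at -1.22 in MHCC97L replicate 2, CSK is lowest in the library with rho -0.78, and the FYN points are ordered by line.

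Sequence just before the transcription start is shown for FYN, the member that was called, and for YES1, the member whose fold change moved most with the GC and length correction. RefSeq promoters (GRCh38.p14, 250 bases before to 50 after a start) were found for 6 of the 9 members. FYN has 4 such starts, and since reads were counted per gene, the start that was used cannot be told from the counts. The 250 bases before the first FYN start (chr6:111873453-111873702, − strand) and before the YES1 start (chr18:812243-812492, − strand) follow, with the GC box GGGCGG in capitals, searched on both strands, so that it also appears as its reverse complement CCGCCC.
FYN: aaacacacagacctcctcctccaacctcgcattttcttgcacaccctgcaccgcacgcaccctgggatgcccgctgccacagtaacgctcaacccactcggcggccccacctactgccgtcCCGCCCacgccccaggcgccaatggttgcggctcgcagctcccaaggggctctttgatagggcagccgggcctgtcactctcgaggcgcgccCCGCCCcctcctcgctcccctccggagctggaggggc
YES1: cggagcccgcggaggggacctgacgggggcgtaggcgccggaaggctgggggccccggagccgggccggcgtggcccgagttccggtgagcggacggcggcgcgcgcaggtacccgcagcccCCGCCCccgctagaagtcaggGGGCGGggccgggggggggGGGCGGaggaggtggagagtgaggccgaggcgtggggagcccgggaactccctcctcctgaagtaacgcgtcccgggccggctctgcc
Both of these starts lie in GC-rich sequence. The whole window of the first FYN start has a GC content of 69% with 26 CpG sites, and the YES1 window 78.7% with 39 CpG sites, against medians of 58.7% and 14 over 35116 promoters. The first FYN window has 2 GC boxes and that of YES1 has 3, in a motif that 44.95% of all these promoters hold. FYN also has 1 CCAAT box (CCAAT, 34.6% of promoters) and YES1 none, and neither window holds the AP-1 motif TGANTCA (7.71%) or the TATA box TATAAA (11.5%). The other 3 FYN windows differ from the one shown and from each other. One has 82.3% GC with 55 CpG sites and 8 GC boxes, whereas the remaining ones have 38% and 47.3% GC, with 8 and 2 CpG sites and no GC box. These are matches of letters and do not show that a factor binds.

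LYN, known from signalling in B cells and myeloid cells and also made in many carcinomas, did not differ between lines beyond its spread. The MHCC97L libraries held 560, 323 and 188 LYN reads, the MHCC97L-Src libraries 244, 135 and 411, and the MHCC97L-Oxa libraries 244, 269 and 209. All 3 lines overlapped, and MHCC97L-Oxa had the narrowest range. LYN had log2 fold changes of -0.35 in MHCC97L-Src (95% interval -1.48 to 0.79), -0.55 in MHCC97L-Oxa (-1.501 to 0.40) and 0.21 between the resistant lines (-0.46 to 0.88). The edgeR adjusted p was 0.656, 0.410 and 0.751. Without MHCC97L replicate 1 or with the GC and length correction the first of these turned to 0.10 and 0.01.

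SRC itself, the founder of the family and the gene after which the inhibitor class is named, was close to the lower limit of what could be tested. The libraries held 25, 37 and 41 SRC reads in MHCC97L, 31, 25 and 14 in the libraries of MHCC97L-Src, and 46, 23 and 23 in MHCC97L-Oxa. The lowest value was an MHCC97L-Src library and the highest an MHCC97L-Oxa library, and the lines overlapped. SRC had log2 fold changes of -0.44 in MHCC97L-Src (95% interval -1.57 to 0.70, edgeR adjusted p = 0.569), -0.17 in MHCC97L-Oxa (-1.24 to 0.90, adjusted p = 0.836) and -0.27 between the resistant lines (-1.23 to 0.68, adjusted p = 0.775). With the GC and length correction the log2 fold changes were -0.96, -0.47 and -0.49 (adjusted p = 0.138, 0.432 and 0.542). With 14 to 46 reads per library the intervals were wide. A difference in SRC mRNA between the lines was not detectable in either direction, with or without the correction.

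LCK, FRK, FGR and BLK did not reach the filter of the test. LCK, best known from T cells, had 1, 2 and 0 reads in MHCC97L, 8, 6 and 5 in the libraries of MHCC97L-Src, and 14, 3 and 0 in MHCC97L-Oxa. Every MHCC97L-Src library was above every MHCC97L library, and the MHCC97L-Oxa values ran across both. The summed LCK reads gave a ratio of 6.52 between MHCC97L-Src and MHCC97L (95% exact binomial interval 1.92 to 34.4) and of 5.61 between MHCC97L-Oxa and MHCC97L (1.62 to 29.9), where the intervals cover counting error only and not the spread between libraries. The first ratio was 4.32 to 13.0 with 1 library left out, the highest being without MHCC97L replicate 2 and the lowest without MHCC97L replicate 3. Of the 17 LCK reads in MHCC97L-Oxa, 14 came from replicate 1, and without that library the second ratio was 1.496 (0.2003 to 11.2). FRK, an epithelial member, had 10, 3 and 4 reads in MHCC97L, 4, 1 and 4 in MHCC97L-Oxa and 0 in every MHCC97L-Src library. Set against a floor of 3 counts per library, FRK was at least 1.84-fold lower in MHCC97L-Src than in MHCC97L. This bound rested on MHCC97L replicate 1, and without it the bound was 1.13-fold. FGR, a myeloid member, had 0 to 4 reads in MHCC97L, 1 to 3 in MHCC97L-Src and 3 to 11 in MHCC97L-Oxa. The ratio of summed FGR reads was 0.260 between MHCC97L-Src and MHCC97L-Oxa (0.0762 to 0.713), and it was 0.154 without MHCC97L-Src replicate 2 and 0.385 without MHCC97L-Oxa replicate 2, where the interval reached 1.28. Against MHCC97L, the FGR ratio was 3.96 in MHCC97L-Oxa (1.44 to 13.5) and 1.03 in MHCC97L-Src (0.237 to 4.47). The MHCC97L-Oxa ratio was 2.65 to 13.1 with 1 library left out. Its interval began at 0.804 without MHCC97L-Oxa replicate 2 and at 0.966 without MHCC97L replicate 1. Of 10 leukocyte markers, PTPRC, CD3E, MS4A1, LYZ and NKG7 were at 0 counts in every library, and 2 or 3 per line were over the floor in all 3 libraries. Their summed FPKM, mostly CD68, was 14.4 to 21.9 in MHCC97L, 23.2 to 27.8 in MHCC97L-Src and 43.3 to 43.6 in MHCC97L-Oxa, and its part in the LCK and FGR values was not tested. BLK, a B-cell member, had no read in any library.

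Across the 8 kinases, FYN took a larger share of the summed mRNA in both resistant lines than in MHCC97L. Levels of different genes are compared here as FPKM, which allows for transcript length, and no GC correction was applied to it here. The summed FPKM was 7.57 ± 4.30 in MHCC97L against 8.05 ± 1.60 in MHCC97L-Src and 5.94 ± 0.672 in MHCC97L-Oxa (SD, n = 3 each), and the exact permutation test (two-sided) gave p = 0.9 for each resistant line against MHCC97L and p = 0.1 between the resistant lines, whose sums did not overlap. FYN held 14.9%, 32.8% and 19.5% of it in the MHCC97L libraries. In the MHCC97L-Src libraries its share was 64.5%, 63.5% and 64.8%, and in the MHCC97L-Oxa libraries 49.3%, 43.0% and 47.9%. The FYN shares did not overlap between any pair of lines. YES1, with a transcript of 37.7% GC, held 57.5%, 14.0% and 54.4% in the MHCC97L libraries. The part of the GC shift of the libraries in these shares was not tested. FYN was the most abundant of the kinases in all 6 resistant libraries, whereas YES1 was in MHCC97L replicates 1 and 3 and LYN in replicate 2. The same exact test gave p = 0.1 for the FYN share in each comparison, the smallest that 3 against 3 libraries allow, and 0.45 after Benjamini-Hochberg adjustment over 18 tests of shares and sums.

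**Figure D4:**
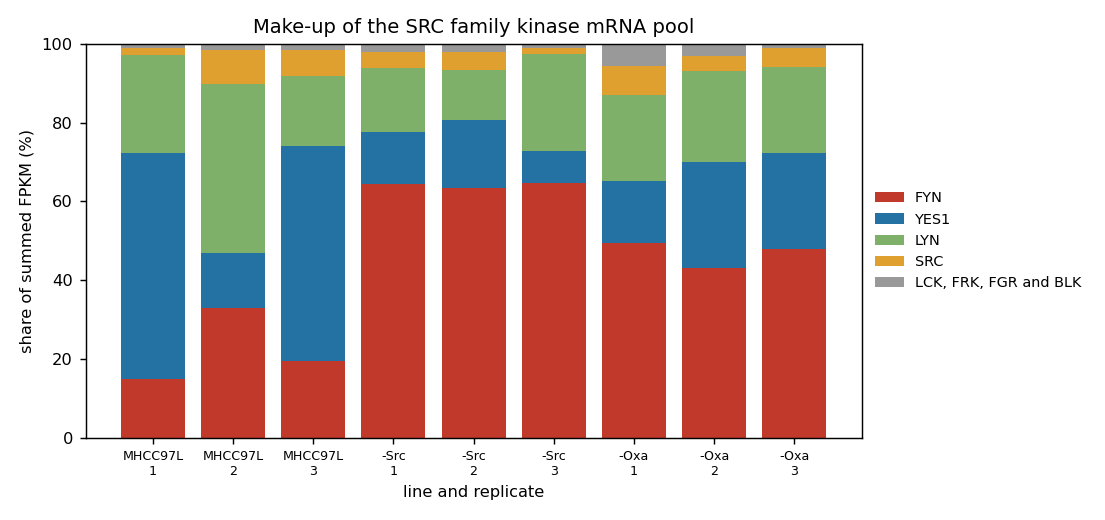
Share of each kinase in the summed FPKM of the 8 SRC family kinases (vertical axis, percent) in each of the 9 libraries, as stacked bars, where -Src and -Oxa stand for the resistant lines. FYN fills 63.5% to 64.8% of the bar in MHCC97L-Src, 43.0% to 49.3% in MHCC97L-Oxa and 14.9% to 32.8% in MHCC97L.

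In order of FPKM, MHCC97L had YES1 at 3.68 ± 3.29, LYN at 1.99 ± 0.997, FYN at 1.47 ± 0.335 and SRC at 0.329 ± 0.0917, where the first 3 overlapped and SRC lay below each of them in every library. MHCC97L-Src had FYN at 5.18 ± 1.08, LYN at 1.499 ± 0.792, YES1 at 0.986 ± 0.176 and SRC at 0.256 ± 0.0926, where LYN and YES1 overlapped. MHCC97L-Oxa had FYN at 2.77 ± 0.302, YES1 at 1.33 ± 0.366, LYN at 1.32 ± 0.183 and SRC at 0.323 ± 0.119, where again YES1 and LYN overlapped. SRC thus made up 1.81% to 8.64% of the summed FPKM across the MHCC97L libraries, and LCK, FRK, FGR and BLK together 0.945% to 5.58% across all 9.

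CSK mRNA was far more abundant than that of the kinases CSK restrains. In every library its FPKM exceeded the sum of the 8 kinases, by 2.13-fold to 9.32-fold. The lowest ratio was in MHCC97L replicate 1, the library with rho -0.78, and no GC correction was applied to these ratios. The CSK level was 34.9 ± 7.41 FPKM in MHCC97L against 38.2 ± 2.49 in MHCC97L-Src and 33.2 ± 1.56 in MHCC97L-Oxa. Per library there were 1638, 2473 and 2508 CSK reads in MHCC97L, 2286, 2523 and 2316 in the libraries of MHCC97L-Src, and 2098, 2038 and 2168 in MHCC97L-Oxa. MHCC97L replicate 1 was the lowest of the 9, and every MHCC97L-Src library was above every MHCC97L-Oxa library. CSK had log2 fold changes of 0.21 in MHCC97L-Src (95% interval -0.39 to 0.82, edgeR adjusted p = 0.603), -0.08 in MHCC97L-Oxa (-0.64 to 0.48, adjusted p = 0.849) and 0.29 between the resistant lines (0.02 to 0.57, adjusted p = 0.227). None passed the test. With the GC and length correction the log2 fold changes were -0.46, -0.55 and 0.08 (adjusted p = 0.0999, 0.0627 and 0.621), CSK having a transcript of 63.6% GC. The ratio of CSK FPKM to the summed FPKM of the 8 kinases was 5.96 ± 3.62 in MHCC97L against 4.91 ± 1.31 in MHCC97L-Src and 5.66 ± 0.963 in MHCC97L-Oxa, and all pairs of lines overlapped (two-sided exact permutation p = 0.4 to 1).

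A looser rule asked for an unadjusted p under 0.05 and a log2 fold change beyond 1 in size. By this rule FYN was among the 5.74% of genes higher in MHCC97L-Src than in MHCC97L and YES1 among the 18.9% lower. Beside the second share, 1 of 5 members is no result about the family. No member passed it in MHCC97L-Oxa, where 4.63% of genes were higher and 11.5% lower, or between the resistant lines, where 1.49% were higher and 2.52% lower. At an unadjusted p under 0.05 alone there were 2, 1 and 2 members in the 3 comparisons, beside 29.5%, 22.4% and 19.5% of genes. FYN was the only member called with DESeq2 in each comparison, beside 17.6%, 7.4% and 7% of genes in either direction, and the only one with the GC and length correction, beside 9.59%, 8.56% and 9.03%.

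In their profile over the 9 libraries, the genes most like YES1 among 11023 were TCF12, SEC24B and NFAT5, with Pearson's r of 0.995, 0.994 and 0.992 on the log2 CPM scale. Those most like CSK were SGTA, IMPA2 and JPT1, with r of 0.994, 0.993 and 0.992. SRC had no gene so close, the nearest being CATSPERD, PLPP5 and LFNG with r of 0.918, 0.877 and 0.873. The libraries share their depth and their GC shift between all genes, the transcripts most like YES1 having a GC content of 40.4% to 43.0% and those most like CSK of 54.2% to 62.3%.

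Genes that act on or with the family were followed in 6 lists, of which 49 genes were tested in MHCC97L-Src against MHCC97L. A call is one by edgeR without the correction, unless DESeq2 or the correction is named. The median log2 fold change of all genes in the 3 comparisons was -0.29, -0.26 and -0.04 with the GC and length correction. Among the substrates and scaffolds, 1 gene was called. NEDD9, a docking protein of focal adhesions that SRC family kinases phosphorylate, had 227, 248 and 193 reads in MHCC97L, 260, 206 and 267 in MHCC97L-Oxa, and 35, 40 and 50 in MHCC97L-Src. Every MHCC97L-Src library was below every other library, and MHCC97L and MHCC97L-Oxa overlapped. NEDD9 fell by 2.31 on the log2 scale in MHCC97L-Src against MHCC97L (SE 0.41, edgeR adjusted p = 0.0303) and by 2.44 against MHCC97L-Oxa (SE 0.23, adjusted p = 0.000348). The second call held with each of the 6 libraries left out and under all 11 other settings, and the first under all 11 but not without MHCC97L replicate 3 or any one MHCC97L-Src library (adjusted p = 0.108 to 0.190). In MHCC97L-Oxa against MHCC97L the log2 fold change was 0.13 (adjusted p = 0.816). Of 20 substrates and scaffolds tested, NEDD9 was the only one called, and the median log2 fold change of the list was -0.37 in MHCC97L-Src and -0.35 in MHCC97L-Oxa, with 15 of 20 below 0 in each, beside 57.3% and 60.8% of all genes. With the correction these medians were -0.51 and -0.46. By the looser rule AFAP1, an actin-linked SRC substrate, was higher in MHCC97L-Src (1.06), and ANXA2 (-1.53) and CTNND1 (-1.19) were lower, each with an adjusted p over 0.05. CDCP1, a membrane docking protein of SRC family kinases, had a log2 fold change of 0.86 (adjusted p = 0.0892). DESeq2 called AFAP1, ANXA2 and CDCP1 beside NEDD9 in MHCC97L-Src (adjusted p = 0.00382, 0.00214 and 0.0146). With the correction 2 of the 20 were called higher and 5 lower there. In that comparison 17.6% of all genes were called with DESeq2 and 9.59% with the correction, in either direction.

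Among the proteins that bring CSK to membranes, CAV1 was called between the resistant lines. CAV1, the coat protein of caveolae, had 4420, 1550 and 1522 reads in MHCC97L, 802, 519 and 1067 in the libraries of MHCC97L-Src, and 1770, 1631 and 1354 in MHCC97L-Oxa. All MHCC97L-Src libraries were the lowest. CAV1 fell by 0.90 on the log2 scale in MHCC97L-Src against MHCC97L-Oxa (SE 0.20, edgeR adjusted p = 0.0298), a call that was lost without any one MHCC97L-Oxa library or without MHCC97L-Src replicate 1 (adjusted p = 0.0571 to 0.141) and under 4 of 11 other settings. Against MHCC97L the log2 fold change was -1.53 (edgeR adjusted p = 0.0942), which passed with DESeq2 (adjusted p = 0.0146) and with the correction (-1.29, adjusted p = 0.0234). Of this list 4 of 6 genes were tested, and PAG1, LIME1 and DOK1 were not called in any comparison by edgeR, by DESeq2 or with the correction. Its median was -0.16 in MHCC97L-Src, equal to that of all genes, 0.21 in MHCC97L-Oxa and -0.36 between the resistant lines, and the second of these turned to -0.11 with the correction.

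Among the genes for lipid attachment, trafficking and chaperones, HSP90AA1 was called. It encodes a stress-inducible form of HSP90, the chaperone that with CDC37 keeps kinases folded. Its reads were 15063, 2230 and 11529 in MHCC97L, 1073, 1094 and 950 in the libraries of MHCC97L-Src, and 994, 1160 and 2331 in MHCC97L-Oxa. MHCC97L replicate 2 was within the range of MHCC97L-Oxa, and all MHCC97L libraries were above all of MHCC97L-Src. HSP90AA1 fell by 3.05 on the log2 scale in MHCC97L-Src (SE 0.58, edgeR adjusted p = 0.0368), and its log2 fold change in MHCC97L-Oxa was -2.64 (adjusted p = 0.109, and 0.000953 with DESeq2). The call was lost without MHCC97L replicate 3 or any one MHCC97L-Src library (adjusted p = 0.0550 to 0.133) and under 4 of 11 other settings. The list of 7 genes had a median of -0.82 in MHCC97L-Src and -0.74 in MHCC97L-Oxa, or -0.68 and -0.65 with the correction. No other gene of the list was called by edgeR or DESeq2. With the correction NMT1, which attaches the lipid anchor, was called in MHCC97L-Src and MHCC97L-Oxa (-1.196 and -1.01, adjusted p = 0.0258 and 0.0345). CDC37 had log2 fold changes of 0.09 and -0.09, and of -0.68 and -0.65 with the correction, where neither passed the test (adjusted p = 0.0577 and 0.0594).

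Of the phosphatases that act on the tail or the activation loop 9 of 11 were tested, and whether any passed depended on the tool. No phosphatase was called by edgeR in the 3 comparisons, and 5, 2 and 4 were at an unadjusted p under 0.05. DESeq2 called 2, 1 and 1, and the correction 1, 0 and 2. Of all genes, 29.5%, 22.4% and 19.5% were at an unadjusted p under 0.05. DESeq2 called 17.6%, 7.4% and 7% of genes, and the correction 9.59%, 8.56% and 9.03%. By the looser rule 4 phosphatases were lower in MHCC97L-Src, beside 18.9% of all genes. These were PTPN11, PTPN2, PTPN12 and PTPRE, with log2 fold changes of -2.42, -2.17, -1.44 and -1.04. With the GC and length correction these were -1.36, -1.18, -0.43 and -0.84, and without MHCC97L replicate 1 PTPN12 was at -0.48. PTPN11, the phosphatase SHP2, had 5335, 435 and 1846 reads in MHCC97L, 376 to 480 in MHCC97L-Src and 512 to 605 in MHCC97L-Oxa. MHCC97L replicate 2 lay among the resistant libraries, and replicates 1 and 3 lay above them. The adjusted p of PTPN11 in MHCC97L-Src was 0.101 with edgeR, 0.00579 with DESeq2 and 0.0783 with the correction. In MHCC97L-Oxa its log2 fold change was -2.12 (edgeR adjusted p = 0.191, DESeq2 adjusted p = 0.0321). The adjusted p of PTPN2 in MHCC97L-Src was 0.0948 with edgeR, 0.00483 with DESeq2 and 0.0466 with the correction, and PTPN2 passed under 5 of 11 other settings and PTPN11 under 4. Between the resistant lines PTPRE was at -0.83 (edgeR adjusted p = 0.0983, DESeq2 adjusted p = 0.0413, and 0.0257 with the correction). PTPN1 and PTPRA, phosphatases that can open SRC by removing the tail phosphate, had log2 fold changes of -0.01 and 0.11 in MHCC97L-Src, or -0.10 and -0.15 with the correction. The median of the list was -0.92 in MHCC97L-Src, -0.20 in MHCC97L-Oxa and -0.30 between the resistant lines. With the correction it was -0.43, -0.21 and -0.23, so that the first lay nearer to the -0.29 of all genes.

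Neither the ubiquitin ligases nor the relatives held a call by edgeR. Of the ubiquitin ligases that remove active SRC family kinases 5 of 6 were tested. In each comparison 1 was at an unadjusted p under 0.05, and DESeq2 called 1, 0 and 1. Beside these stood 29.5%, 22.4% and 19.5% of all genes, and 17.6%, 7.4% and 7% with DESeq2. CUL5 had the largest difference, with log2 fold changes of -1.97 in MHCC97L-Src and -1.95 in MHCC97L-Oxa (edgeR adjusted p = 0.117 and 0.201, DESeq2 adjusted p = 0.0357 and 0.0797), or -0.67 and -0.97 with the correction. The medians of that list were -0.46, 0.00 and -0.03 in the 3 comparisons, and -0.02, -0.46 and -0.02 with the correction.

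Of the relatives 4 of 6 were tested, with 2, 2 and 1 at an unadjusted p under 0.05, and DESeq2 called 2, 2 and 0. The shares of all genes were 29.5%, 22.4% and 19.5% at that p, and 17.6%, 7.4% and 7% with DESeq2. MATK, the second kinase that phosphorylates the tail, had 463, 609 and 784 reads in MHCC97L, 801, 1010 and 759 in the libraries of MHCC97L-Src, and 749, 790 and 803 in MHCC97L-Oxa. Its log2 fold changes of 0.59 and 0.33 (edgeR adjusted p = 0.248 and 0.469) turned to -0.21 and -0.26 with the correction. ABL1 had 4120 to 5888 reads in MHCC97L, 8031 to 8710 in MHCC97L-Src and 10350 to 10801 in MHCC97L-Oxa, without overlap between any lines. In MHCC97L-Oxa the ABL1 log2 fold change was 1.04 (edgeR adjusted p = 0.0787), and it passed under 7 of 11 other settings, among them DESeq2 (adjusted p = 0.00305) and the correction (0.73, adjusted p = 0.0184). In MHCC97L-Src it was 0.83 (edgeR adjusted p = 0.102, DESeq2 adjusted p = 0.0303), or 0.33 with the correction (adjusted p = 0.189). ABL2 had the opposite sign, with log2 fold changes of -2.01 in MHCC97L-Src and -1.67 in MHCC97L-Oxa (edgeR adjusted p = 0.0942 and 0.188, DESeq2 adjusted p = 0.00583 and 0.0416). With the correction ABL2 was at -1.40 in MHCC97L-Src (adjusted p = 0.0365) and -1.15 in MHCC97L-Oxa (adjusted p = 0.0673). The medians of the relatives were 0.64, 0.42 and -0.01, and the first 2 turned to -0.07 and -0.11 with the correction, where the third was -0.12.

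**Figure D5:**
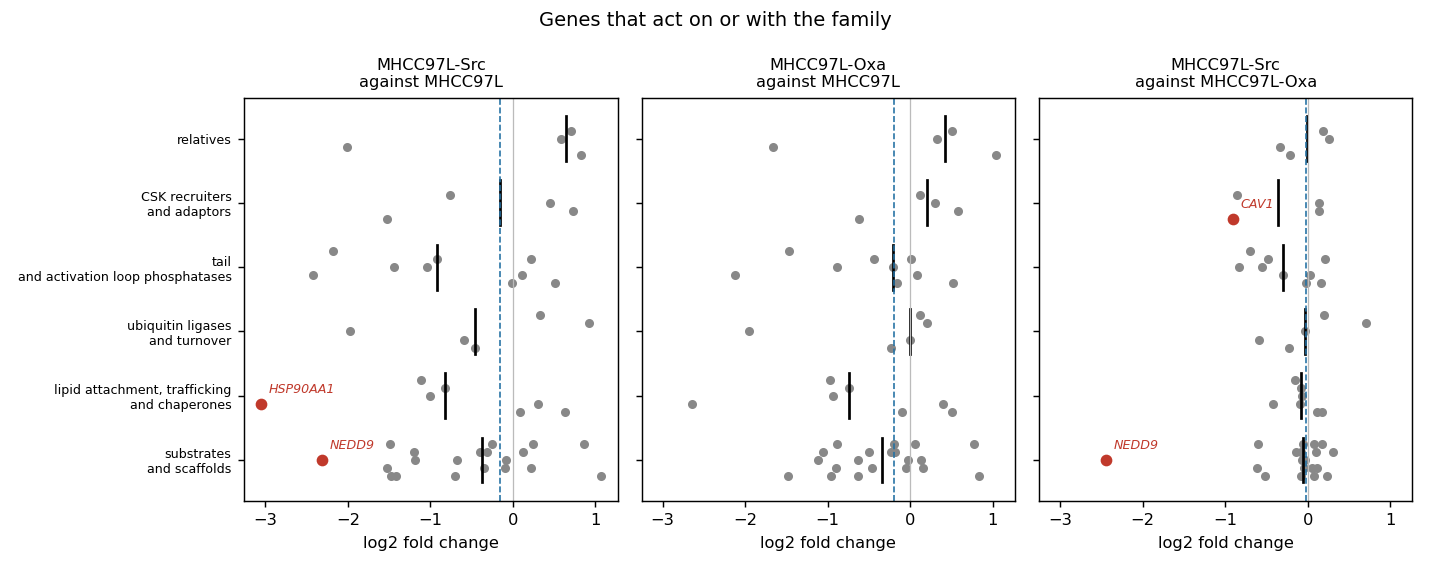
Log2 fold changes (horizontal axis) of the tested genes in 6 lists (rows) for the 3 comparisons. Each point is a gene, red with its name where the edgeR adjusted p is under 0.05, black bars are list medians and the dashed line is the median of all genes tested. NEDD9 at -2.31 and HSP90AA1 at -3.05 are red in MHCC97L-Src against MHCC97L, none in MHCC97L-Oxa, and NEDD9 at -2.44 and CAV1 at -0.90 between the resistant lines.

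In GRCh38, with GENCODE release 29, SRC (NCBI gene 6714) lies on chromosome 20 from 37344685 to 37406050, YES1 (7525) on chromosome 18 from 721588 to 812546, FYN (2534) on chromosome 6 from 111660332 to 111873452, and CSK (1445) on chromosome 15 from 74782057 to 74803198. LYN (4067) lies on chromosome 8 from 55879813 to 56014168 and BLK (640) on the same chromosome from 11486894 to 11564604. LCK (3932) lies on chromosome 1 from 32251239 to 32286165, FGR (2268) on chromosome 1 from 27612064 to 27635277, and FRK (2444) on chromosome 6 from 115931149 to 116060758. Genes that overlap YES1, LYN, LCK, FRK, BLK or CSK in that annotation have no row in the count table, and whether reads were counted by strand is not given in the sources used here.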

How the data were processed

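Stranded, poly(A) selected RNA libraries were sequenced, 3 for each of MHCC97L, MHCC97L-Src and MHCC97L-Oxa. The submitters' processing notes name Trimmomatic 0.36, HISAT2 2.2.1.0 and the build GRCh38.p12, and the counting program and its strand setting are not given in the sources used here. The authors deposited raw counts per gene and FPKM values per gene, normalized for depth and transcript length, for 20030 genes. The study calls the libraries independent experiments, but the labels do not give separate cultures, so p-values measure the spread between these libraries, which may be technical.

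Lines were compared in pairs, each on the deposited counts of its 6 libraries, with the quasi-likelihood test of edgeR, with filterByExpr (minimum count 10), TMM normalization and Benjamini-Hochberg adjustment over all genes tested. Genes were called at an adjusted p under 0.05. SEs were derived from the F statistic, as the log2 fold change over its square root, and 95% intervals use the same fit. The GC and length correction fitted each library's log2 CPM deviations (prior count 2) by natural splines with 5 degrees of freedom each and entered them as offsets. Summed FPKM, shares and ratios were computed from the deposited FPKM and compared by exact permutation tests. Markers and 6 lists of related genes were used with the 9 members. All of these, and the members, were chosen with earlier results of these data known. Genes named from the lists were up to 10 per comparison with the largest absolute log2 fold change among those called or passing the looser rule. AFAP1, CDCP1, NMT1, PAG1, LIME1, DOK1, CDC37, PTPRE, PTPN1, PTPRA and MATK were named after their values were seen. For SRC, YES1 and CSK the 3 genes with the most similar log2 CPM among those with at least 10 counts in every library were named. Scripts were tested on simulated counts. Alternatives comprised DESeq2, other scalings and filters, limma on log2(FPKM + 1) and log2(FPKM + 0.1), a replicate block, all 9 libraries in one fit, the GC and length correction and leaving out each library. Versions were DESeq2 1.42.0, limma 3.58.1 and edgeR 4.0.16 in R 4.3.3, and SciPy 1.17.1, matplotlib 3.10.9 and pandas 2.3.3 in Python 3.11.15.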

Additional observations from a re-analysis of the deposited data

Results flagged for a closer look

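The test of MHCC97L-Src against MHCC97L-Oxa gives the difference between the changes of these 2 lines from MHCC97L. It covered 5 members and 49 list genes, of which 3 differed, beside 2.12% of 11994 genes that rose and 2.52% that fell. Beside these shares the count of 3 is no result about the members and lists. FYN was higher in MHCC97L-Src by 0.96 on the log2 scale (edgeR adjusted p = 0.00836, MHCC97L-Src above MHCC97L-Oxa in 3 of 3 libraries). NEDD9 was at -2.44 (adjusted p = 0.000348) and CAV1 at -0.90 (adjusted p = 0.0298), each lower in 3 of 3 libraries. The FYN call held under 8 of 11 other settings, that of CAV1 under 7 and that of NEDD9 under 11. With 1 library left out, these calls held in 4, 2 and 6 of 6 fits. FYN was also higher than in MHCC97L in both resistant lines, by 1.92 and 0.96, whereas NEDD9 differed from MHCC97L by -2.31 in MHCC97L-Src and by 0.13 in MHCC97L-Oxa.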

How the results depend on the processing

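With edgeR, 256 genes were called in MHCC97L-Src against MHCC97L, 115 in MHCC97L-Oxa against MHCC97L and 556 between the resistant lines. In the first comparison the count was 2114 with DESeq2, 702 without a filter, 162 with at least 10 counts in every library, 1956 with all 9 libraries in one fit and 1145 with the GC and length correction. In the second it was 893 with DESeq2, 211 with total counts, 495 with all 9 libraries, 252 and 256 with limma at a pseudocount of 1 and 0.1, and 1024 with the GC and length correction. In the third it was 839 with DESeq2, 86 with all 9 libraries and 1075 with the GC and length correction. Leaving out 1 library gave 22 to 3419, 2 to 2705 and 167 to 1617 genes.

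The number of members called was 1, 0 and 1 in the 3 comparisons. It became 0 in the first with limma on log2(FPKM + 1), 1 in the second with DESeq2 or the GC and length correction, and 0 in the third with all 9 libraries or with limma at either pseudocount. Leaving out 1 library gave 0 to 2, 0 to 1 and 0 to 1. Of the members, the GC and length correction turned LYN to 0.011 and CSK to -0.46 in MHCC97L-Src against MHCC97L. Leaving out 1 library moved LYN between -0.73 and 0.10 there and between -0.19 and 0.47 between the resistant lines, SRC between -0.59 and 0.011 in MHCC97L-Oxa against MHCC97L and between -0.51 and 0.13 between the resistant lines, and CSK between -0.20 and 0.13 in MHCC97L-Oxa. The LYN share difference in MHCC97L-Oxa ranged from -11.7 to 0.808 percentage points and the SRC share difference from -2.16 to 1.26. The median log2 fold change of all genes in MHCC97L-Src against MHCC97L was -0.07 with DESeq2's size factors, -0.23 with total counts and -0.29 with the GC and length correction. The cause of these shifts was not tested. The same correction also turned MATK, CDC37, PTPRA and the medians of the relatives and of the proteins that bring CSK to membranes in some comparisons, as given with their values. FYN kept its sign under every setting run.

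The replicate numbers were not used as pairs in the main test. Deviations of libraries with the same number correlated at -0.63 to 0.42. Correlations of libraries with different numbers are not given beside these, so they cannot decide whether the numbers mark pairs. With the replicate block 988 genes were called in MHCC97L-Src against MHCC97L, and with the block and the GC and length correction 589, and 818 in MHCC97L-Oxa against MHCC97L, where CSK in the first was at -0.45. With the block FYN had an adjusted p of 0.00567 in MHCC97L-Src against MHCC97L, 0.317 in MHCC97L-Oxa against MHCC97L and 0.0134 between the resistant lines.

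The correction for GC content with each library left out was chosen after seeing the data. SRC, with 14 to 46 reads, and the 4 members near the floor are limited by depth.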

Other observations

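Non-receptor tyrosine kinases outside the SRC family were read as a further list, chosen after seeing the data. PTK2, PTK2B, ABL1, ABL2, PTK6 and MATK of this list are also in the lists above, so their calls are counted again. None of the 14 tested kinases was called by edgeR at an adjusted p under 0.05 in any of the 3 comparisons, beside 5, 5 and 3 at an unadjusted p under 0.05, while DESeq2 called 5, 3 and 1. Over all genes the shares were 29.5%, 22.4% and 19.5% at an unadjusted p under 0.05 and 17.6%, 7.4% and 7% with DESeq2. JAK1, which transmits cytokine signals, had log2 fold changes of -2.30 in MHCC97L-Src and -1.66 in MHCC97L-Oxa. JAK3, its partner at cytokine receptors of lymphocytes, had 1.53 and 1.49, and FER, a kinase of cell junctions, -3.09 and -2.40, each with an edgeR adjusted p of 0.0905 or more. With the GC and length correction FER was at -1.83 and -1.47 and JAK1 at -1.89 and -1.27. FES, the close relative of FER, was at 1.86 between the resistant lines (edgeR adjusted p = 0.112).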
